A study of Mus musculus with 8 samples.

Results

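The genes of the neutrophil primary granule were read here in whole bone marrow (BM) of a mouse model of acute myeloid leukemia (AML). Mpo, Elane, Prtn3, Ctsg, Ms4a3 and Serpinb1a were chosen by name, with earlier results of these data known. All 6 are among the 13305 genes of the deposited count table. All 8 mice were C57BL/6N and carried Mx1-Cre, Dnmt3a+/- and Flt3ITD/ITD. They differed in the adaptor gene Gab2, which was Gab2+/+ in 3 AML WT mice, Gab2+/- in 2 AML HET mice and Gab2-/- in 3 AML KO mice, and no age is given in the labels. Mx1-Cre is driven by an interferon-inducible promoter and is not restricted to neutrophils. In this colony the floxed Dnmt3a allele recombined without an inducing injection. AML WT mice carry the leukemia alleles too, so healthy BM is no part of the comparison. The paper reports few blasts in the blood of AML HET mice and hardly any in that of AML KO mice. By flow cytometry of BM it also reports changed progenitor shares in AML mice without Gab2. Granulocyte-monocyte progenitors made up a smaller part, and megakaryocyte-erythroid progenitors a larger part, of the Lin- Sca-1- c-Kit+ cells. Genotype and disease burden therefore cannot be told apart in these comparisons.

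Primary (azurophil) granules are the first granules that a developing neutrophil makes. Their proteins are transcribed mainly in promyelocytes, and the mRNAs decline before the secondary granule genes are switched on. The same genes are also transcribed in granulocyte-monocyte progenitors and in many myeloid leukemias. In whole BM, a higher level can come from more cells that transcribe the gene or from more RNA per cell, and these cannot be told apart.

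Levels are given as CPM, the reads of a gene scaled to the total of its library, with library sizes set by TMM. Differences are log2 fold changes with their standard error (SE). Reads counted on genes ranged from 28009258 to 39266815 per mouse. Gab2 was at 61.6 to 93.9 CPM in AML WT, 50.8 to 55.8 CPM in AML HET and 35.0 to 47.2 CPM in AML KO mice, so the order of the labels was kept although reads were still counted on the gene in AML KO. Which exons these reads cover cannot be seen in counts per gene. Each member had at least 4511 counts in every mouse, so counting error was small beside the spread between mice.

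The 6 genes lie on 5 chromosomes (GRCm38, GENCODE M21). Mpo is on chromosome 11 from 87793581 to 87804413, Elane on chromosome 10 from 79886247 to 79888215 and Prtn3 on chromosome 10 from 79874476 to 79883174. Ctsg is on chromosome 14 from 56099881 to 56102574, Ms4a3 on chromosome 19 from 11629496 to 11640851 and Serpinb1a on chromosome 13 from 32842092 to 32851185. Prtn3 and Elane are neighbours on the same strand with 3072 bases between them. The first exon of the longest Prtn3 transcript overlaps the antisense gene Plppr3 by 159 bases, and whether counting used the strand is not given in the sources used here.

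The promoters are shown because the members are known as shared targets of a few myeloid factors. RefSeq (GRCm38.p6) gave a window of 250 bases before the start for 5 of the 6 members. Each stretch runs 5′ to 3′ along the gene and ends where GENCODE M21 places an exon. Capitals mark matches, on either strand, to GAGGAAGT (PU.1), AACNGT (MYB), TGTGGT (RUNX) or TTNCNNAA (C/EBP).
Mpo, chr11:87793534-87793580, plus strand: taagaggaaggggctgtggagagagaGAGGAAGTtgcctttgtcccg
Elane, chr10:79886062-79886246, plus strand: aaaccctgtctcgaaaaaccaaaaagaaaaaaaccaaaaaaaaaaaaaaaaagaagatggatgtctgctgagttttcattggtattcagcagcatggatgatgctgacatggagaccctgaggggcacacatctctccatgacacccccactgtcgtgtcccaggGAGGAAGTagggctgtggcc
Prtn3, chr10:79879417-79879613, plus strand: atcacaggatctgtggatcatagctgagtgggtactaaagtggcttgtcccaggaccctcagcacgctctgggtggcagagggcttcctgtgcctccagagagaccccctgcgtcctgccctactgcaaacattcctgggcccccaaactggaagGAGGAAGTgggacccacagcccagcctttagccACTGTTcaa
Ctsg, chr14:56102575-56102824, minus strand: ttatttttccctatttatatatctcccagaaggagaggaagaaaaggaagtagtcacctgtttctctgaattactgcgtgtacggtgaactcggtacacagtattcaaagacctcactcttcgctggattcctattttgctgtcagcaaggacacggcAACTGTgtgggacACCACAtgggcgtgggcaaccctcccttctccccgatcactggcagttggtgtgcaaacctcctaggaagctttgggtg
Ms4a3, chr19:11640852-11641101, minus strand: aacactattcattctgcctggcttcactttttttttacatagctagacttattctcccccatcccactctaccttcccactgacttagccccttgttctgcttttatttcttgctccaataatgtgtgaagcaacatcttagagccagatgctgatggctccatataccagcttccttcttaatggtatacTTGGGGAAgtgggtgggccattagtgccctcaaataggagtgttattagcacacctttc
GAGGAAGT was found in 3 of the 5 windows, those of Mpo, Elane and Prtn3, each time on the strand of the gene. It began 224, 85 and 95 bases before the start, and 2.44% of all 32851 promoter windows of that length hold it. Its shorter core GAGGAA, not marked by capitals, was in 4 of the 5 windows, also that of Ctsg, and in 23.3% of all windows. AACNGT was in the windows of Mpo, Prtn3 and Ctsg (22.3% of all windows), and in Mpo it lies in the exonic stretch that is not printed. TGTGGT was in the Ctsg window only (14.0% of all windows), and TTNCNNAA in that of Ms4a3 only (36.8% of all windows). These are matches of letters, and no binding was measured. The motifs were chosen with earlier results of these data known, so the counts and shares are descriptions, and enrichment was not tested.

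The 6 genes together were higher in AML KO BM than in the other genotypes, and the AML HET mice lay at the level of AML WT. Their share of all counts was 0.595 ± 0.0405% for the 3 AML WT mice, 0.583 ± 0.0341% for the 2 AML HET mice and 0.765 ± 0.0627% for the 3 AML KO mice (mean ± SD). The lowest AML KO mouse, with 0.723%, was above the highest of the other 5, with 0.625%. Mpo alone supplied 49.6% to 52.9% of the members' summed CPM in every mouse, so the sum mainly follows Mpo.

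**Figure D1:**
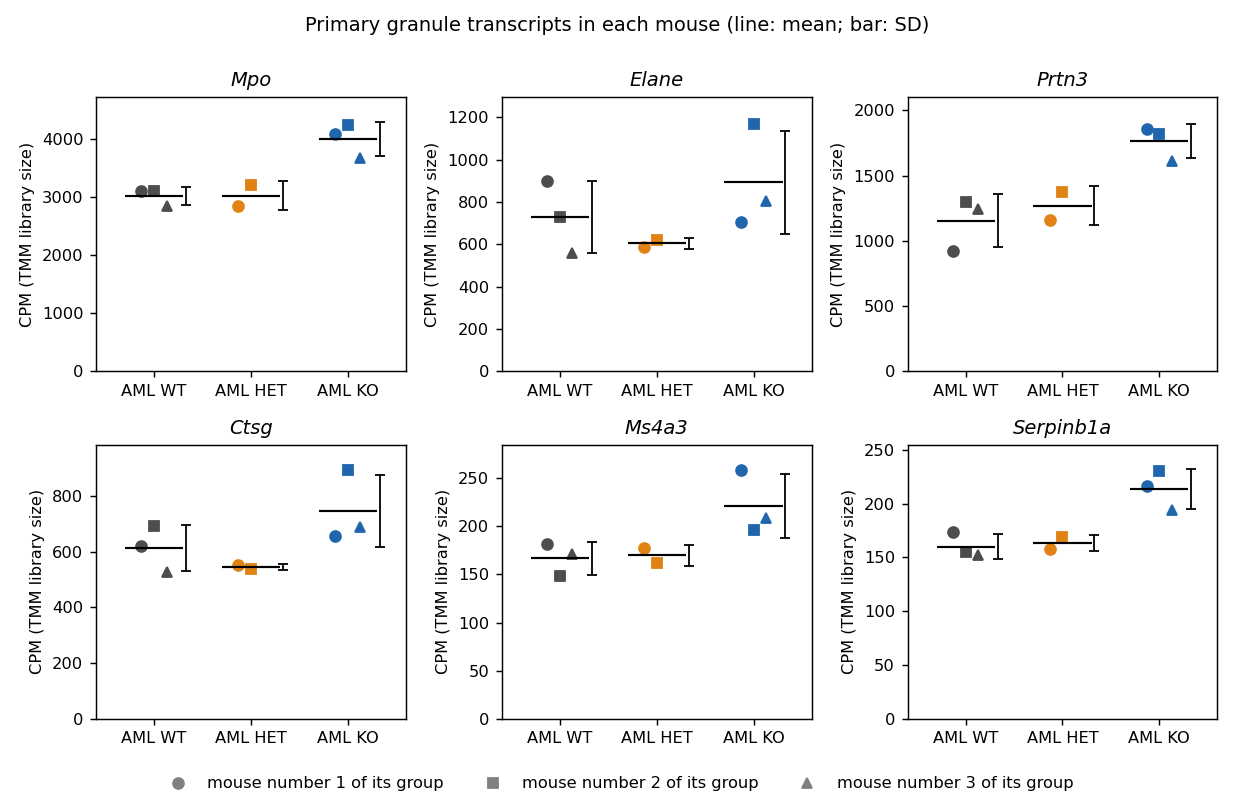
Each panel plots the CPM (TMM library size) of 1 primary granule gene in every mouse, by genotype, on an axis from 0. Symbols give the mouse number within its group, lines the mean and bars the SD. The 3 AML KO mice lie above all 5 other mice for Mpo, Prtn3, Ms4a3 and Serpinb1a, while for Elane and Ctsg they overlap AML WT.

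Mpo encodes myeloperoxidase, the heme enzyme that makes hypochlorous acid. AML WT mice had 3109, 3109 and 2840 CPM, AML HET mice 2848 and 3211 CPM, and AML KO mice 4097, 4242 and 3671 CPM. Every AML KO mouse was above every other mouse, and AML HET overlapped AML WT. AML KO differed from AML WT by 0.41 on the log2 scale (SE 0.13), with an unadjusted p of 0.0121 in the quasi-likelihood test of edgeR and 0.188 after Benjamini-Hochberg adjustment over all genes. Its neighbour Lpo, the lactoperoxidase gene 2014 bases away, was at 0.673 ± 0.378 CPM in AML WT (SD, n = 3) and 0.849 ± 0.455 CPM in AML KO (SD, n = 3).

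Elane, Prtn3 and Ctsg encode the serine proteases neutrophil elastase, proteinase 3 and cathepsin G, which are stored as active enzymes. For Elane, AML WT mice had 897, 730 and 559 CPM, AML HET mice 586 and 621 CPM, and AML KO mice 705, 1169 and 804 CPM. AML KO overlapped AML WT, and both AML HET mice were below all AML KO mice. The log2 difference of AML KO from AML WT was 0.29 (SE 0.22, adjusted p = 0.468, edgeR). Without AML KO mouse 2 this was 0.05, and without AML WT mouse 1 it was 0.46.

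Prtn3 was at 922, 1296 and 1243 CPM in AML WT, 1163 and 1377 CPM in AML HET and 1859, 1823 and 1613 CPM in AML KO mice. No AML KO mouse overlapped another genotype, and AML HET overlapped AML WT. On the log2 scale AML KO differed from AML WT by 0.61 (SE 0.16), with an unadjusted p of 0.00362 and an adjusted p of 0.101 in edgeR's test. For the antisense neighbour Plppr3 this difference was 0.27 (SE 0.20, adjusted p = 0.462, edgeR), at 157 ± 23.0 CPM in AML WT (SD, n = 3). The part of Plppr3 reads in the Prtn3 count was not tested.

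Ctsg had 618, 693 and 527 CPM in AML WT, 551 and 536 CPM in AML HET and 656, 893 and 689 CPM in AML KO mice. As for Elane, AML KO mouse 2 was highest, AML KO overlapped AML WT, and AML HET lay below AML KO. AML KO differed from AML WT by 0.28 on the log2 scale (SE 0.16, adjusted p = 0.350, edgeR), and by 0.13 without AML KO mouse 2. The basophil protease gene Mcpt8, 14607 bases from Ctsg, rose from 26.2 ± 4.41 to 65.9 ± 28.7 CPM (SD, n = 3 each; log2 fold change 1.33, adjusted p = 0.0453, edgeR).

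Ms4a3 encodes a membrane-spanning protein of granulocyte-monocyte progenitors and promyelocytes. Its levels were 182, 148 and 171 CPM in AML WT, 178 and 162 CPM in AML HET and 258, 196 and 209 CPM in AML KO mice. The AML KO mice lay above all others, with AML KO mouse 2 closest to them, and AML HET lay within AML WT. The log2 difference of AML KO from AML WT was 0.41 (SE 0.14), with an unadjusted p of 0.0165 and an adjusted p of 0.213 in edgeR's test. Its neighbour Ms4a2, a chain of the IgE receptor of basophils and mast cells, rose from 1.00 ± 0.0599 to 5.63 ± 1.79 CPM (SD, n = 3 each; log2 fold change 2.49, adjusted p = 0.00988, edgeR).

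Serpinb1a encodes a cytosolic inhibitor of elastase, proteinase 3 and cathepsin G. AML WT mice had 174, 155 and 152 CPM, AML HET mice 158 and 169 CPM, and AML KO mice 217, 230 and 194 CPM. The AML KO mice were again above all others, and AML HET lay within AML WT. On the log2 scale AML KO differed from AML WT by 0.41 (SE 0.12), with an unadjusted p of 0.00556 and an adjusted p of 0.129 in edgeR's test. Its transcripts share an exact run of 81 bases with those of the paralog Serpinb1b, against 17 for Elane with Prtn3 and 26 for Mpo with Epx, so reads could be shared, and its level is uncertain to that extent.

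The comparison of AML KO with AML WT sets loss of Gab2 against its presence, with disease burden differing alongside. In it, 0 of the 6 members passed an adjusted p of 0.05 in edgeR's test, where 2.09% of all genes did. At an unadjusted p of 0.05, 4 of the 6 were higher (Mpo, Prtn3, Ms4a3 and Serpinb1a), against 9.77% of all genes higher. The same 4 did not overlap between the groups, against 12.3% of all genes that were higher without overlap. DESeq2, which called 5.49% of all genes, put 3 of them past the threshold, namely Prtn3 (adjusted p = 0.00852), Mpo (adjusted p = 0.0165) and Serpinb1a (adjusted p = 0.0219). The exact two-sided permutation test on log2 CPM gave p = 0.1 for these 4 genes, the smallest that 3 against 3 mice allow, 0.3 for Ctsg and 0.5 for Elane. All 6 log2 fold changes were above 0, with a median of 0.41, beside a median of −0.02 and 48.1% above 0 over all genes.

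Between AML HET and AML WT, the comparison for loss of a single allele, 0 of 6 members passed the threshold in edgeR's test (0.0225% of all genes), and 0 had an unadjusted p under 0.05 (2.47% of all genes) or passed in DESeq2 (0.444% of all genes). The log2 fold changes ran from −0.27 for Elane to 0.14 for Prtn3, and those of Mpo, Ms4a3 and Serpinb1a were 0.01, 0.03 and 0.03. Without AML WT mouse 1 they were −0.092 for Elane and 0.0034 for Prtn3, without AML WT mouse 3 −0.42 for Elane and −0.26 for Ctsg (−0.17 with all mice), without AML WT mouse 2 −0.075 for Ctsg, and without AML HET mouse 1 0.25 for Prtn3. The interval of 2 standard errors either side reached from −0.29 to 0.30 for Mpo and from −0.77 to 0.22 for Elane. For AML KO against AML WT it reached from 0.14 to 0.67 for Mpo and from −0.15 to 0.73 for Elane. The 2 intervals overlapped for each of the 6 members, and both rest on the same AML WT mice. No member was without overlap between AML HET and AML WT mice (18.1% of all genes were).

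Between AML KO and AML HET, 0 of 6 members passed the threshold in edgeR's test (0.0% of all genes), and 0 passed in DESeq2 (0.579% of all genes). All 6 had an unadjusted p under 0.05 and were higher in AML KO, against 3.52% of all genes, and all 6 were higher without overlap, against 13.2% of all genes. Over all genes, 50.1% of the log2 fold changes were above 0. Their log2 fold changes were 0.40 for Mpo, 0.56 for Elane, 0.47 for Prtn3, 0.46 for Ctsg, 0.38 for Ms4a3 and 0.38 for Serpinb1a. Without AML KO mouse 2 they were 0.31 for Elane and 0.30 for Ctsg. Their adjusted p in edgeR's test ran from 0.759 to 0.835. This comparison shares the AML KO mice with the first and the AML HET mice with the second, so the 3 sets of values are not independent. Nor are the 6 members independent of each other, in any of the comparisons. Pearson's r of their log2 CPM over the 8 mice ran from 0.25 (Elane with Ms4a3) to 0.97 (Mpo with Serpinb1a).

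**Figure D2:**
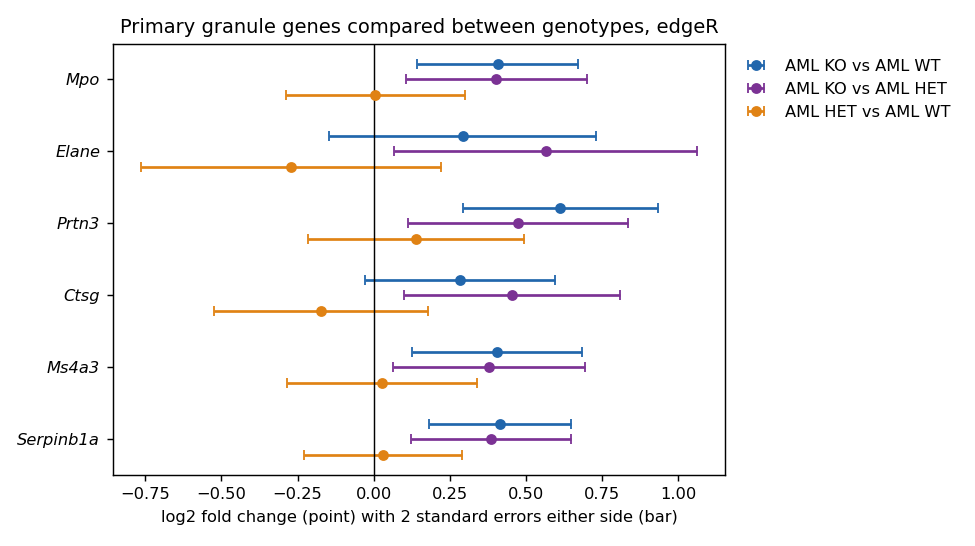
Points are log2 fold changes of the 6 primary granule genes from edgeR in 3 comparisons, and bars reach 2 standard errors to either side. AML KO lies above AML HET for all 6 genes, with values of 0.38 to 0.56, and AML HET against AML WT lies between −0.27 and 0.14.

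Whether AML HET departs from the midpoint of AML WT and AML KO was tested in the same fit, as the log2 levels of AML KO plus AML WT minus 2 times that of AML HET. This contrast was 0.40 (SE 0.27) for Mpo, 0.84 (0.45) for Elane, 0.34 (0.32) for Prtn3, 0.63 (0.32) for Ctsg, 0.35 (0.28) for Ms4a3 and 0.35 (0.23) for Serpinb1a. All 6 were above 0, the side on which AML HET lies nearer to or below AML WT. None had an unadjusted p under 0.05 in edgeR's test (0.541% of all genes did on that side), and none passed the adjusted threshold (0.00752% of all genes), so a departure from the midpoint was not detected with 2 AML HET mice. The size of the contrast changed when single mice were left out. It was 0.23 for Mpo and 0.10 for Prtn3 without AML HET mouse 1. Without AML HET mouse 2 it was 0.58 for Mpo, 0.59 for Prtn3 and 0.22 for Ms4a3. For Elane it was 0.58 without AML KO mouse 2. Fitted per functional Gab2 allele, the members differed by −0.14 (Ctsg) to −0.31 (Prtn3) on the log2 scale. Without AML KO mouse 2 the value per allele was −0.053 for Ctsg and −0.0099 for Elane, against −0.15 for Elane with all mice, and without AML WT mouse 1 it was −0.25 for Elane. Without AML KO mouse 1 it was −0.13 for Ms4a3, against −0.20. Of the 6, 4 had an unadjusted p under 0.05 in that fit (11.2% of all genes did in that direction) and 0 passed the adjusted threshold (2.64% of all genes did), with adjusted p from 0.0715 for Prtn3 to 0.474 for Elane in edgeR's test, and DESeq2 put 3 past it (6.5% of all genes).

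To set genes beside each other, CPM were divided by the kilobases of exon of all annotated transcripts of a gene together. Mpo and Prtn3 have 6 such transcripts and Elane 1, so the order and ranks depend in part on the annotation. The AML WT levels in CPM per kb were 882 ± 45.3 for Mpo, 741 ± 172 for Elane, 666 ± 117 for Prtn3, 593 ± 80.5 for Ctsg, 88.6 ± 9.18 for Ms4a3 and 69.5 ± 5.09 for Serpinb1a (SD, n = 3 each). The first 4 overlapped their neighbours in this order, while Ctsg was above Ms4a3 and Ms4a3 above Serpinb1a in all 3 mice. In AML KO the order was Mpo at 1169 ± 86.6, Prtn3 at 1019 ± 76.7, Elane at 907 ± 249 and Ctsg at 722 ± 124 CPM per kb (SD, n = 3 each). Neighbours among these again overlapped between mice. Within each AML KO mouse, though, Mpo was above Prtn3 and Elane above Ctsg, while Elane was above Prtn3 in AML KO mouse 2 only. By this measure Mpo ranked 31 to 61 among the 13305 genes, and Elane 30 to 91, over the 8 mice. Prtn3 ranked 47 to 69 and Ctsg 54 to 102, while Ms4a3 (rank 394 to 638) and Serpinb1a (rank 520 to 786) were lower.

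The pairs of members differed in how closely they moved from mouse to mouse. The log2 ratio of Mpo to Serpinb1a had an SD of 0.0525 over the 8 mice (Pearson's r of their log2 CPM 0.97), the tightest of the 15 pairs. By this SD the loosest was Elane with Prtn3, the neighbours on chromosome 10, with 0.415 (r = 0.29). By r it was Elane with Ms4a3 (r = 0.25, SD 0.377). Elane was closer to Ctsg (SD 0.168, r = 0.90), on another chromosome. The ratio of Elane to Prtn3 CPM was 0.973, 0.563 and 0.450 in AML WT, 0.504 and 0.451 in AML HET and 0.379, 0.641 and 0.499 in AML KO mice. AML WT mouse 1 stood apart, with the highest Elane and the lowest Prtn3 of its group, and without this mouse Prtn3 in AML KO differed from AML WT by 0.47 on the log2 scale. The points of these correlations share genotype and library, so they are descriptions only.

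**Figure D3:**
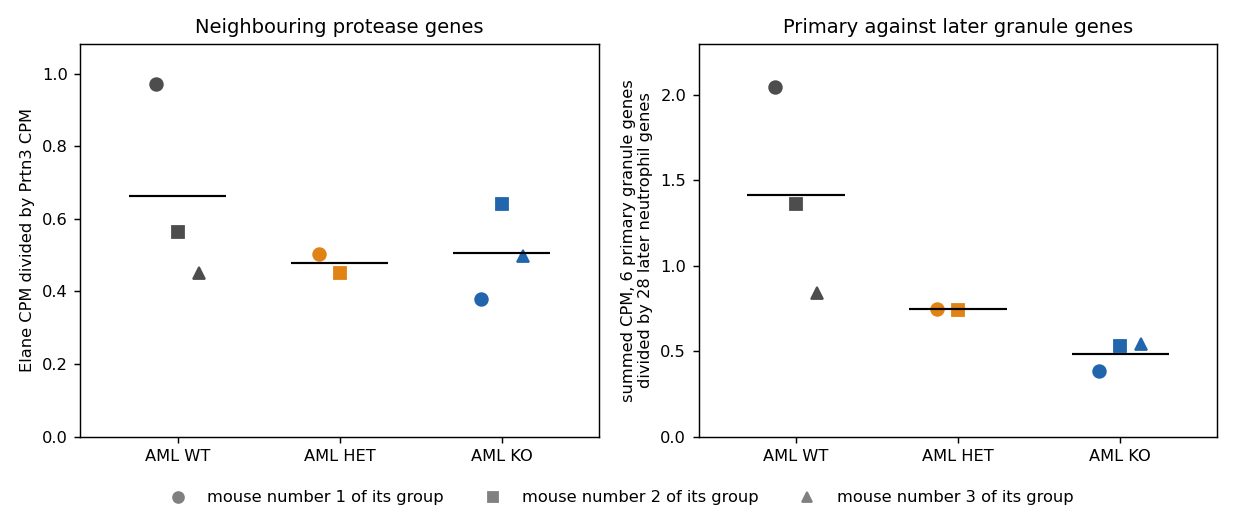
The left panel plots Elane CPM divided by Prtn3 CPM in each mouse, and the right panel the summed CPM of the 6 primary granule genes divided by that of 28 secondary granule and mature neutrophil genes, both from 0, with lines at group means. AML WT mouse 1 has the highest value in both panels (0.973 and 2.05), and the AML KO mice have the lowest values on the right (0.382 to 0.543).

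Genes of later stages of neutrophil development were read beside the members. Between AML WT and AML KO, 2.09% of all genes passed the threshold of edgeR's test, 235 higher and 43 lower of 13305. Of 28 secondary granule and mature neutrophil genes, 13 rose and 0 fell at that threshold, with a median log2 fold change of 1.73. The count was 1 without AML WT mouse 2, 6 without AML KO mouse 1, 8 without AML KO mouse 3 or either AML HET mouse, and 20 without AML WT mouse 3. Among them, the chitinase-like gene Chil3 rose by 1.28, the siderophore-binding Lcn2 by 2.10 and the neutrophil surface protein gene Cd177 by 1.31 on the log2 scale. Their summed CPM was 2885 to 6519 in AML WT, 7334 to 8182 in AML HET and 13223 to 20368 in AML KO mice. The members' sum divided by this sum was 2.05, 1.36 and 0.842 in AML WT, 0.748 and 0.743 in AML HET and 0.382, 0.530 and 0.543 in AML KO mice. The 3 genotypes did not overlap in this ratio, and they already did not in the summed CPM of the 28 genes alone. The ratio was lowest in AML KO although the members' own sum was highest there.

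Other enzymes of the primary granule and the lysosome gave values on both sides of 0. Of 18 measured granule hydrolase genes, 6 were above and 12 below 0 between AML WT and AML KO (median log2 fold change −0.17). At the threshold, which 2.09% of all genes passed in either direction, 0 rose and 1 fell. That gene was Lyz1, a lysozyme at 11.0 ± 3.03 CPM in AML WT and 3.93 ± 0.361 CPM in AML KO (SD, n = 3 each; log2 fold change −1.48, adjusted p = 0.0158, edgeR). The far more abundant Lyz2 was at 10474 ± 732 and 8679 ± 2339 CPM (SD, n = 3 each; adjusted p = 0.454, edgeR). Without AML WT mouse 2, AML KO mouse 1 or AML KO mouse 3, 0 of these 18 genes passed, and without AML KO mouse 2 there were 2. Prss57, a further serine protease of these granules, differed by 0.24 on the log2 scale (SE 0.14, adjusted p = 0.364, edgeR).

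Genes that process and pack the granule proteins gave 1 rise and 0 falls among 20 (2.09% of all genes passed in either direction), with a median of −0.21. Cd63, a tetraspanin of the granule membrane, rose from 48.6 ± 11.3 to 126 ± 28.5 CPM (SD, n = 3 each; log2 fold change 1.38, adjusted p = 0.0122, edgeR). The count in this list was 0 without AML WT mouse 2 and 3 without AML KO mouse 2. Ctsc encodes the dipeptidyl peptidase that activates the granule serine proteases, and it differed by −0.65 on the log2 scale (SE 0.19, adjusted p = 0.146, edgeR), opposite in sign to all 3 proteases. Srgn, the proteoglycan core that binds the proteases, had 0.12 (SE 0.13, adjusted p = 0.609, edgeR). Canx and Calr, chaperones of myeloperoxidase folding, had −0.44 and −0.28 without passing the threshold.

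Protease inhibitors other than Serpinb1a were measured for 14 of 25 listed genes. Of these, 2 rose and 0 fell (median 0.66), where 2.09% of all genes passed in either direction. Slpi, a secreted inhibitor of elastase and cathepsin G, rose from 45.3 ± 3.51 to 85.9 ± 11.1 CPM (SD, n = 3 each; log2 fold change 0.92, adjusted p = 0.0140, edgeR). Wfdc21 rose by 2.63 on the log2 scale (adjusted p = 0.0344, edgeR). Without AML WT mouse 2, 0 of these inhibitors passed, without AML WT mouse 3 there were 3, and without any other mouse 1. The paralogs Serpinb1b and Serpinb1c are not among the genes analysed here.

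Of 13 regulators of the promyelocyte stage, 2 rose and 0 fell (2.09% of all genes passed in either direction), with a median of 0.07. Cebpe, a factor needed for secondary granules, rose from 13.9 ± 4.07 to 47.3 ± 8.05 CPM (SD, n = 3 each; log2 fold change 1.76, adjusted p = 0.00898, edgeR). Gfi1, a repressor needed for neutrophil development, rose by 0.69 on the log2 scale (adjusted p = 0.0268, edgeR). The count of regulators was 1 without any mouse other than AML KO mouse 2. At an unadjusted p of 0.05 in edgeR's test, 5 of the 13 were higher (9.77% of all genes). Among them was Cebpb, with 0.69 on the log2 scale, which did not pass the adjusted threshold. Over all 13 regulators the log2 fold changes ran from −0.41 to 1.76. Smaller values than for Cebpe and Gfi1 were seen for 5 listed activators linked to primary granule promoters. They were 0.07 for Cebpa, 0.06 for Spi1 (PU.1), 0.38 for Myb, −0.10 for Runx1 and −0.16 for Cbfb. Of these 5, 0 passed the threshold.

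Relatives of the members by family included genes of basophils and eosinophils. Of 7 measured relatives among the proteases and peroxidases, 3 rose (Mcpt8, Prss34 and Epx) and 0 fell, where 2.09% of all genes passed in either direction. Prss34, a basophil protease, rose by 4.24 and Epx, the eosinophil peroxidase, by 3.26 on the log2 scale (adjusted p = 0.00640 and 0.0247, edgeR). Of the 9 measured Ms4a genes other than Ms4a3, 1 rose (Ms4a2) and 0 fell, with a median of −0.27. Without AML WT mouse 2 both lists had 0 calls, and the proteases and peroxidases had 1 without either AML HET mouse, AML KO mouse 1, AML KO mouse 3 or AML WT mouse 3, and 2 without AML WT mouse 1. In AML HET against AML WT and in AML KO against AML HET, 0 genes of any of these lists passed the threshold.

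**Figure D4:**
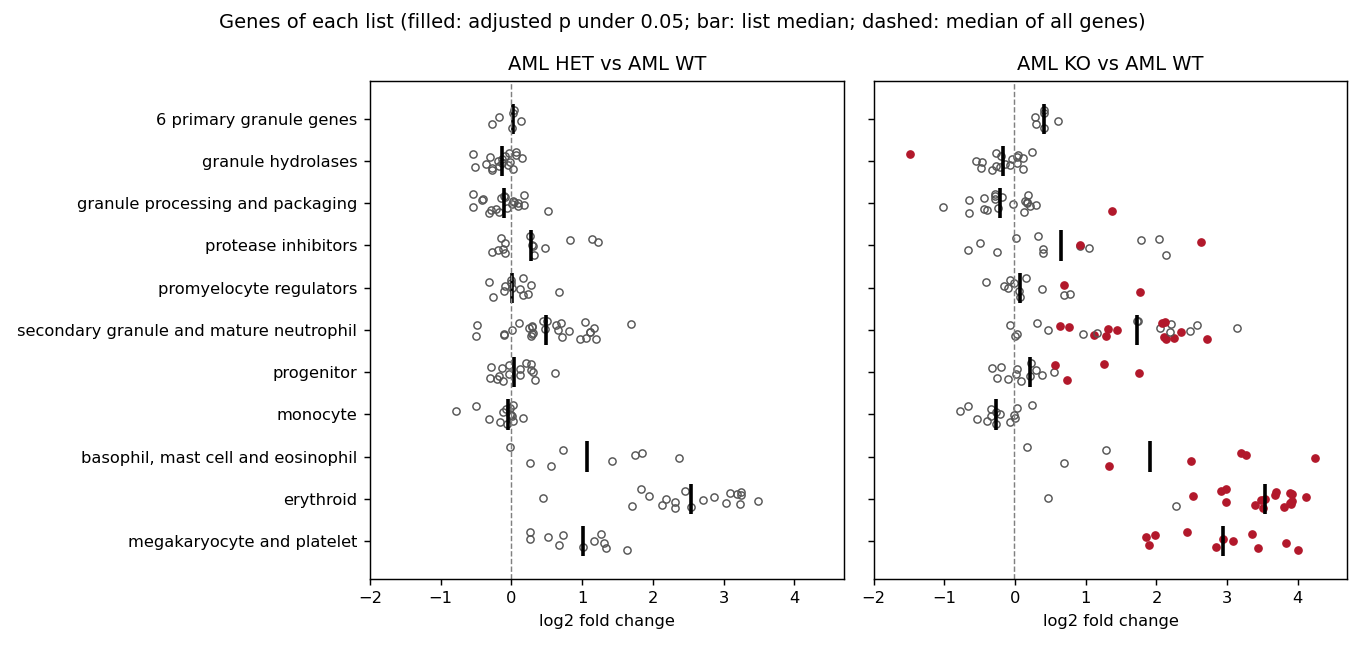
Each point is the log2 fold change of 1 gene from edgeR, with AML HET against AML WT on the left and AML KO against AML WT on the right, by gene list. Filled points passed the adjusted threshold of 0.05, bars are list medians and dashed lines the median of all genes. The primary granule genes sit near 0 on the left and at a median of 0.41 on the right, where secondary granule and mature neutrophil genes reach 1.73, erythroid genes 3.54 and platelet genes 2.94.

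Markers of other BM cells moved with the genotype beside these results. Of 19 erythroid genes, 17 rose and 0 fell between AML WT and AML KO, where 2.09% of all genes passed in either direction. Their summed level was 343 to 477 CPM in AML WT, 755 to 2398 CPM in AML HET and 1656 to 5718 CPM in AML KO mice. All 11 megakaryocyte and platelet genes rose, from a sum of 36.6 to 39.8 CPM in AML WT to 234 to 341 CPM in AML KO, with 58.8 to 94.4 CPM in AML HET. Of 8 basophil, mast cell and eosinophil genes 5 rose and 0 fell, with sums of 45.9 to 58.8 CPM in AML WT and 175 to 320 CPM in AML KO. The 14 monocyte genes gave 0 calls (median −0.27), and of 16 progenitor genes 4 rose and 0 fell (median 0.22). Of 10 macrophage genes 1 rose and 2 fell, and the 9 B cell and 10 T and NK cell genes gave 0 calls. Without overlap between the groups, 18 of the 19 erythroid and all 11 platelet genes were higher in AML KO than in AML WT mice (12.3% of all genes were). The number of genes past the threshold changed when single mice were left out. The erythroid count was 0 without AML WT mouse 2, 2 without AML WT mouse 1 and 11 without AML KO mouse 1 or AML KO mouse 3, and the platelet count 7 without AML WT mouse 2. Without AML WT mouse 2, 1 basophil, mast cell and eosinophil gene passed and 0 progenitor or macrophage genes, against 3 to 5, 2 to 4 and 0 to 4 without any other mouse, and 1 T and NK cell gene passed without AML WT mouse 3. The part of these cells in the members' differences was not tested. With the erythroid, platelet and mature neutrophil genes left out of the scaling, the members' median for AML KO against AML WT was again 0.41 on the log2 scale.

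The genes whose log2 CPM followed each member most closely over the 8 mice, by Pearson's r, are given as a description. Mpo was followed by Ssx2ip (0.98), Cavin2 (0.98) and Serpinb1a (0.97), and Serpinb1a by C130074G19Rik (0.98), Alox5 (0.98) and Cttn (0.97). Prtn3 was closest to Fabp4 (0.99), S100a16 (0.99) and Rinl (0.98). Elane was closest to Cnksr3 (0.98), Phc1 (0.97) and Trappc9 (0.97), and Ctsg to Col16a1 (0.99), Cd81 (0.98) and Selenom (0.97). Ms4a3 was closest to Arhgap28 (0.99), 1110051M20Rik (0.98) and Pim2 (0.97). Serpinb1a was thus the only member among the 3 closest genes of another member.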

How the data were processed

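RNA from whole BM of 8 separate mice was sequenced on an Illumina HiSeq4000, with 1 library per mouse. The authors deposited raw counts per Ensembl gene, without normalization. The submitters' processing notes name Trimmomatic 0.36, STAR 2.5.2b and mm10, while the counter, its annotation and its strand setting are not given in the sources used here. The lowest total of a listed gene is 106 counts. Of 13305 identifiers, 13266 were found in GENCODE M21.

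The counts were fitted with edgeR 4.0.16 in R 4.3.3 (TMM, filterByExpr, which removed 0 genes, and the robust quasi-likelihood test), with genotype as the only term over all 8 mice and Benjamini-Hochberg adjustment over all genes at a threshold of 0.05. Standard errors came from the F statistic. DESeq2 1.42.0, limma-voom (limma 3.58.1), other scalings and filters, the replicate number as a block and each mouse left out were alternatives. Code was tested on simulated data. The members, the gene lists and the motifs were chosen with earlier results of these data known, and the contrast of AML HET with the midpoint was added after seeing the data. Named genes are the members, genes of the granule-related lists, the 3 smallest p-values of every other list, the nearest listed genes and the 3 genes most like each member. No gene list was tested as a set. Figures used Python 3.11.15 and matplotlib 3.10.9.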

Additional observations from a re-analysis of the deposited data

How the results depend on the processing

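In all 19 alternatives, the 6 members kept log2 fold changes above 0 in AML KO, against AML WT as well as against AML HET. None passed the threshold in these comparisons except in DESeq2, which put 3 past it between AML KO and AML WT and 3 per functional allele, where edgeR put 0. DESeq2 also called more genes in all, with 730 against 278 (AML KO vs AML WT), 59 against 3 (AML HET vs AML WT), 77 against 0 (AML KO vs AML HET) and 865 against 351 (per allele). With a mouse left out, the AML KO vs AML WT count ran from 40 (without AML WT mouse 2) to 370 (without AML KO mouse 2), and was 123, 137 and 167 without AML KO mouse 3, AML KO mouse 1 and AML WT mouse 1. The AML HET vs AML WT count ran from 1 (without AML HET mouse 2) to 5 (without AML KO mouse 2), and that of AML KO vs AML HET from 0 to 1 (without AML WT mouse 2) and 4 (without AML KO mouse 2). The count per allele ran from 137 (without AML KO mouse 1) to 525, with 164 without AML WT mouse 2 and 175 without AML KO mouse 3. In AML HET vs AML WT, limma-voom called 1 gene, and fitting only the groups compared called 5, as against 3 in AML KO vs AML HET. In that comparison with AML WT, the log2 fold changes near 0 turned sign with a mouse left out, ranging from −0.084 to 0.089 for Mpo, −0.053 to 0.095 for Ms4a3 and −0.018 to 0.095 for Serpinb1a. The cause of these shifts was not tested. The replicate block called 19, 0 and 125 genes for AML KO vs AML WT, AML HET vs AML WT and per allele, and gave −0.048 for Mpo and −0.021 for Serpinb1a in AML HET vs AML WT. The labels do not say whether same-numbered mice belong together. Their deviations from the group means correlated at −0.509, −0.109 and −0.131 for AML WT with AML KO. The values were 0.076 and 0.289 for AML WT with AML HET, and −0.138 and −0.04 for AML KO with AML HET. Not every mouse correlated best with its own number. Deviations within a group sum to 0, so these correlations cannot decide whether same-numbered mice share a batch. With 2 or 3 mice a group, the spread between mice limits these values rather than depth.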
